A study of Mus musculus with 12 samples.

Results

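The immunoglobulin gene segments of the mouse were followed through 4 populations sampled as CD4+ T cells, a lineage that does not make antibody. Probes were chosen by the array's own descriptions, which had to name the immunoglobulin heavy, kappa or lambda locus together with a variable, constant or joining segment. Of 39405 probes used, 128 (122 names) carried such a description, and 85 of them were kept because 1 group or more had them well above background on each of its 3 arrays. The choice of words used no difference between groups, but the filter on background did use signal: all 85 passed in the naive group, 59 of them in no other group.

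The arrays belong to a study of experimental autoimmune encephalomyelitis (EAE), a mouse model of multiple sclerosis, with 3 arrays in each of 4 groups. In the immunised group, wild-type C57BL/6 mice had received the myelin oligodendrocyte glycoprotein (MOG) peptide 35-55, and CD4+ T cells were taken from their central nervous system (CNS) at peak disease. In the transferred group, Th17 cells, a helper T cell type able to induce EAE, made in culture from B6.2d2 cells were injected into Rag1-/- mice and recovered from the CNS at peak disease. Such recipients have no mature B or T cells of their own, because Rag1 is needed to assemble antigen receptor genes. The cultured Th17 group held B6.2d2 cells after differentiation in vitro, before any transfer. The naive group was isolated from B6.2d2 spleens as naive CD4+ T cells. B6.2d2 mice carry a transgenic T cell receptor for MOG. The labels give neither age nor sex of the mice, nor how pure the isolated cells were. All 12 genes of a T cell list, Cd3e and Cd4 among them, were well above background on all 12 arrays. Between 57.1% and 64.9% of spots were well above background per array, and 3 arrays a group limit the precision of every value.

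An antibody is built from paired heavy and light chains, and each chain joins a variable region, which binds antigen, to a constant region. Developing B cells cut and join variable, diversity and joining segments of the heavy locus, and then variable and joining segments of the kappa or lambda light chain locus, so that each B cell uses a single assembled gene per chain. Plasma cells, the antibody-secreting end stage of B cells, hold these transcripts in very large amounts. Transcripts of immunoglobulin loci in a T cell preparation are therefore a sensitive sign of RNA from B lineage cells, although unrearranged constant regions, that of the mu chain above all, are also transcribed at low levels outside B cells.

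The kept probes cover the 3 loci unevenly. The heavy chain locus gave 26 probes, 3 to constant and 23 to variable segments, out of 35 described. The kappa locus gave 54, 1 constant and 53 variable, out of 88. The lambda locus gave all 5 of its probes, 3 constant and 2 variable. There was no joining segment probe among the 128. The 85 probes carry 81 names, and 80 of the probes have a name that is a current RefSeq symbol. Iglc3, Ighg1, Igkv2-116 and Igkv15-103 each have a pair of probes. On the mm9 assembly the heavy chain probes with a position lie within 2.67 Mb of chromosome 12 and the lambda probes within 0.18 Mb of chromosome 16. The kappa probes with a position lie within 3.17 Mb of chromosome 6, except for 1 clone-named variable probe 24.47 Mb away from its nearest neighbour, at chr6:43031517-43031576 on the minus strand. Further immunoglobulin transcripts that the array describes in other words were not used here.

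The following probe sequences carry the results below and are given 5′ to 3′ as the array files list them, with mm9 positions. The Igkc probe (chr6:70676692-70676751, plus strand) and the Ighm probe (chr12:114659630-114659689, minus strand) detect the kappa and mu constant regions and have no capitals.
Igkc: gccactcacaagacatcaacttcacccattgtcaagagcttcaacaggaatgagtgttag
Ighm: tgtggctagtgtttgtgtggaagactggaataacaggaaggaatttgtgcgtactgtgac

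The Iglc3 probes (chr16:19065462-19065521 and chr16:19065480-19065539, minus strand) overlap, and capitals mark the 42 bases they share, so they are not independent measurements. The Iglc2 probe shares no run longer than 7 bases with either. Lambda constant genes are closely related, and signal from one may reach the probe of another.
Iglc3 first probe: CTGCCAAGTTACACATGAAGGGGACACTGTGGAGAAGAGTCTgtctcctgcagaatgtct
Iglc3 second probe: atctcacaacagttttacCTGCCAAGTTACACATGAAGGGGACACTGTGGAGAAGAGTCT

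The probes of Igkv14-126 (chr6:67846563-67846622) and Igkv14-111 (chr6:68206771-68206830), both on the plus strand, and of Ighv11-2 (chr12:115286517-115286576, minus strand) detect the 3 segments called between immunised and cultured cells. Capitals mark the 19-base run shared by the pair of Igkv14 probes, which no other kappa variable probe among the 53 holds.
Igkv14-126: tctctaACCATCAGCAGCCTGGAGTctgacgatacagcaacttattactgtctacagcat
Igkv14-111: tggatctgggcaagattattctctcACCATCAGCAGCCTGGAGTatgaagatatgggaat
Ighv11-2: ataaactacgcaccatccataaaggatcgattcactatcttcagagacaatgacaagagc

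Variable segments end in a conserved stretch that codes for tyrosine, tyrosine and cysteine, the cysteine that anchors the fold of the variable domain. The run TATTACTGT, which encodes those residues, was found on the probe strand in 12 of 53 kappa variable probes (22.6%) and 3 of 23 heavy variable probes (13%), against 57 of all 39429 probes (0.145%). On the opposite strand it was in none of these variable probes and in 0.0406% of all probes. It is shown in capitals in a kappa probe at chr6:68376007-68376066, plus strand, and in a heavy chain probe at chr12:115298056-115298115, minus strand.
Igkv16-104: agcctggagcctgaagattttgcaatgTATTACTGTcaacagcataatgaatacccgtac
Ighv14-3: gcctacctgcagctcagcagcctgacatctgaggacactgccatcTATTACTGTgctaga

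Few of the kept probes are near copies of each other. Of 3570 pairs, 5 were identical at 54 or more of 60 bases, and all 5 were pairs of kappa variable probes, 8 probes in all. Signal from related segments can still reach a probe, so each variable probe is read as its segment or a close relative.

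Probes of all 3 loci were above background in immunised, cultured and naive cells, and few were in transferred cells. That naive cells were highest is favoured by the filter, as is a call of lower than naive cells for any of the 59 probes kept through that group alone. A level is the log2 of a probe's processed signal after subtraction of the log2 of the 75th percentile signal on that array, so a level of 0 is a signal at that percentile. The lowest signal called well above background lay between -6.05 and -5.26 on this scale. Of the 85 probes, 47, 59 and 17 were well above background on the immunised arrays 1, 2 and 3. The transferred arrays had 12, 10 and 13, the cultured Th17 arrays 68, 48 and 25, and the naive arrays 85 each. Arrays of the immunised and cultured groups thus differed widely among themselves, while the transferred arrays were all low. Counted over all 128 probes, the immunised arrays had 49, 68 and 18, the transferred arrays 13, 10 and 14, the cultured arrays 81, 51 and 27, and the naive arrays 116, 85 and 122.

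**Figure D1:**
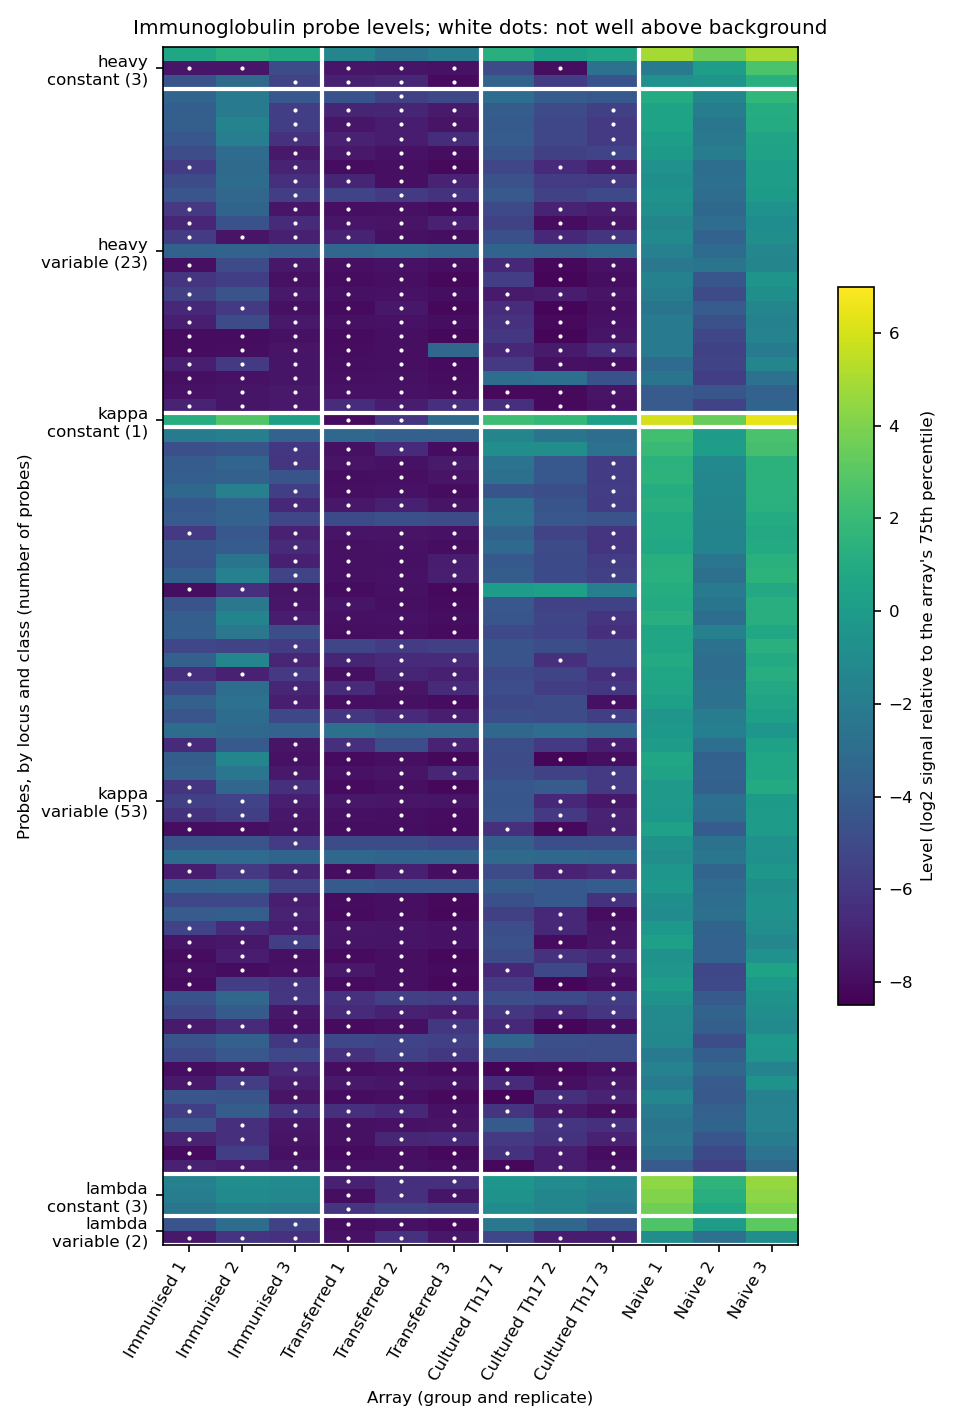
Level of the 85 immunoglobulin probes (rows, by locus and class, sorted by naive mean) on the 12 arrays (columns, by group), in log2 signal relative to the array's 75th percentile. White dots mark values not well above background: they fill most of the 3 transferred columns and none of the naive ones, and naive array 2 is dimmer than naive arrays 1 and 3.

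The median level over the 85 probes was -5.03, -3.99 and -6.81 on the immunised arrays, -7.75, -7.71 and -7.70 on the transferred arrays, -4.69, -5.51 and -6.08 on the cultured arrays and -0.25, -2.95 and -0.01 on the naive arrays. Naive array 2 was the lowest naive array in all 3 loci. Its medians were -3.03 for heavy chain, -2.95 for kappa and 0.82 for lambda probes, against -1.57, -0.04 and 3.62 on naive array 1 and -0.64, 0.16 and 3.96 on naive array 3. The 43 probes that were not kept were mostly missed on that array: 31 of them were well above background on 2 naive arrays, 6 on 1 and 6 on none. Just inside the filter lay Ighv1-63, at -4.04, -5.30 and -3.52 on the naive arrays. Just outside lay Igkv1-135, at -1.05, -5.99 and -0.71 there, which failed on array 2. In bulk samples such as these, fewer B lineage cells and less immunoglobulin RNA per cell cannot be told apart.

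Igkc encodes the kappa constant region, carried by most mouse antibodies. Its level was 1.16, 2.78 and 0.31 in immunised cells, -8.00, -6.09 and -3.16 in transferred cells, 2.19, 1.84 and 0.25 in cultured Th17 cells and 5.95, 3.40 and 6.41 in naive cells. The immunised and cultured arrays overlapped, the naive arrays were all above them, and in transferred cells Igkc was well above background on array 3 alone. Igkc was lower in immunised than in naive cells by a log2 difference of -3.84 ± 1.20 (SE; 14.3-fold; adjusted p = 0.0212 by limma). Cultured cells were lower than naive cells to a like extent, by -3.82 ± 1.20 (14.2-fold; limma adjusted p = 0.0260). Both calls use a spread pooled over all 12 arrays, the transferred ones included, and both depend on single arrays. The first ended without immunised array 1 or 3 or naive array 1 or 3 (limma adjusted p 0.0578 to 0.0814). The second ended without cultured array 3 or naive array 1 or 3 (0.0763 to 0.0913).

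Between immunised and cultured cells Igkc differed by -0.01 ± 1.20 (limma adjusted p = 0.995), an estimate too wide to show whether they were alike. Against transferred cells, where 1 of 3 arrays was well above background, Igkc was higher in immunised cells by 7.17 ± 1.20 (limma adjusted p = 0.0115; 0.0529 without immunised array 2). Transferred cells were also lower than cultured cells (-7.18 ± 1.20, adjusted p = 0.00156) and than naive cells (-11.00 ± 1.20, adjusted p = 4.58e-05). These fitted differences include transferred values at background: without transferred array 1 or array 3 the first was -6.05 or -8.47 and the second -9.88 or -12.30, and that of immunised over transferred cells was 6.04 or 8.46. The transferred array on which Igkc was measured, array 3, was also the only array outside the naive group on which the heavy chain segment Ighv1-23 was well above background, at -3.41. It lay at -8.00 and -7.89 on transferred arrays 1 and 2, both at background.

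Ighm, the constant region of the mu chain of IgM, was the only constant region probe well above background on all 12 arrays. Its level was 0.67, 1.40 and 0.92 in immunised cells, -1.45, -2.56 and -1.92 in transferred cells, 1.24, 0.33 and 0.70 in cultured cells and 4.92, 3.64 and 4.95 in naive cells. The transferred arrays were below all others, and immunised and cultured arrays overlapped between them and the naive ones. Ighm was higher in immunised than in transferred cells by 2.97 ± 0.41 (7.86-fold; limma adjusted p = 0.00380), and lower in transferred than in cultured cells by -2.73 ± 0.41 (6.65-fold; adjusted p = 8.05e-04).

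Against naive cells Ighm was lower by -3.51 ± 0.41 in immunised cells (11.4-fold, limma adjusted p = 7.63e-05), by -6.48 ± 0.41 in transferred cells (89.3-fold, adjusted p = 1.50e-06) and by -3.75 ± 0.41 in cultured cells (13.4-fold, adjusted p = 5.79e-05). These 3 comparisons share the naive arrays. Immunised over cultured cells gave 0.24 ± 0.41 (adjusted p = 0.678).

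The Ighg1 probes, to the gamma 1 constant region of class-switched IgG, did not follow the other constant regions across the naive arrays. The first probe read -2.03, 0.10 and 2.61 in naive cells and the second -0.68, -0.50 and 1.34, so naive array 2 was not the lowest on the first probe and array 1 was the lowest on both. The pair share no run longer than 4 bases and target different parts of the gene. Outside the naive group the first probe was well above background on immunised array 3 (-4.92) and on cultured arrays 1 and 3 (-4.98 and -2.74). The second was above background on immunised arrays 1 and 2 (-4.53 and -3.14) and on all cultured arrays (-3.58, -5.77 and -4.59). Neither was above background on any transferred array, where naive cells were at least 61.9-fold higher by the first probe (limma adjusted p = 8.63e-04), which was kept through the naive group alone, and at least 54.9-fold higher by the second (adjusted p = 2.45e-05). Such a bound sets the mean of the bright group against the lowest signal well above background, or the probe's own value if higher, on each dim array. Ighg2c, the other gamma chain described, was not kept.

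The lambda constant regions, used by a minority of mouse antibodies, were measured on every immunised, cultured and naive array. The first Iglc3 probe read -1.69, -0.88 and -1.15 in immunised cells, -7.07, -6.33 and -6.40 in transferred cells, -0.34, -1.02 and -1.53 in cultured cells and 4.35, 1.56 and 4.55 in naive cells. Immunised arrays lay within 1 log2 unit of each other, although their kappa and heavy chain medians spread further. Immunised cells were at least 22.4-fold above transferred cells, in which the probe was not well above background on any array (limma adjusted p = 0.00253). Transferred cells were lower than naive cells by at least 594-fold (adjusted p = 1.99e-06) and lower than cultured cells by at least 27.1-fold (adjusted p = 1.90e-04).

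The second Iglc3 probe read -1.92, -1.12 and -1.33 in immunised cells, -7.91, -6.43 and -7.63 in transferred cells, -0.57, -1.37 and -1.85 in cultured cells and 4.08, 1.25 and 4.31 in naive cells. Iglc2 read -2.47, -1.79 and -2.06 in immunised cells, -6.14, -5.33 and -5.65 in transferred cells, -0.95, -1.40 and -2.30 in cultured cells and 3.62, 0.82 and 3.96 in naive cells, and was above background on 2 of the 3 transferred arrays. All 3 lambda constant probes ranked the groups alike, with naive cells highest and transferred cells lowest. Against naive cells they were lower by -4.91 to -4.66 in immunised cells and by -4.48 to -4.35 in cultured cells, and limma called each of these (adjusted p at most 7.73e-04). Between immunised and cultured cells they differed by -0.56 to -0.19, and none was called. The Iglc2 call of immunised over transferred cells (3.60 ± 0.70, adjusted p = 0.0222) ended without any 1 of the 6 arrays of these groups (adjusted p 0.0514 to 0.0834). With normexp background correction and quantile normalization this call and those of both Iglc3 probes ended (Iglc2 1.66, adjusted p = 0.191; Iglc3 2.48 and 2.44, adjusted p = 0.0582 and 0.0691).

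**Figure D2:**
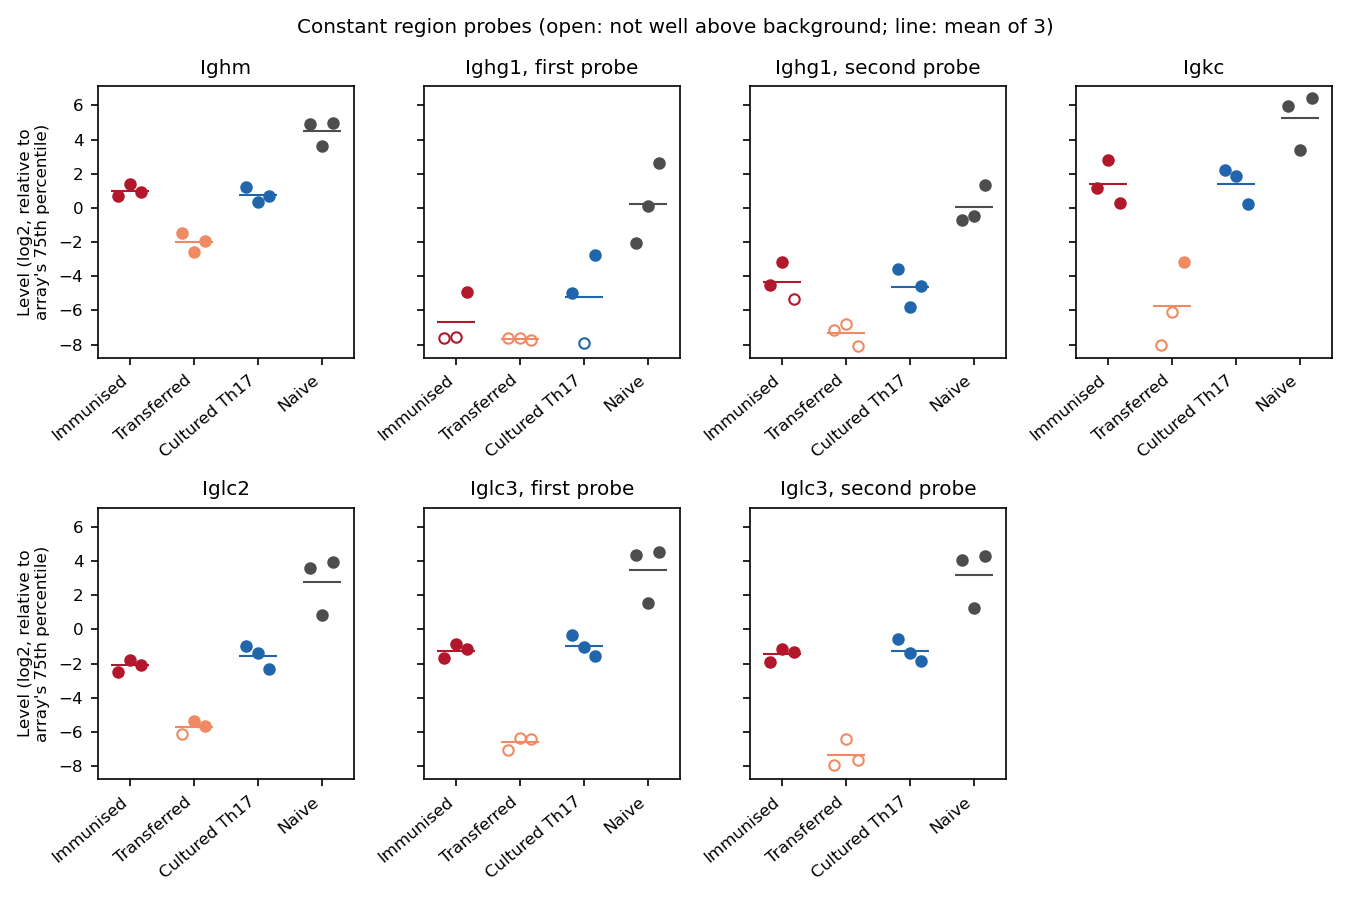
Level of the 7 constant region probes on each array (log2 signal relative to the array's 75th percentile, shared axis), by group, with the mean as a line and open circles for values not well above background. Ighm is filled in every group, Igkc in 1 transferred array, and the lambda probes have their immunised and cultured points between the naive and the transferred ones.

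By mean level most variable segments, but not all, were highest in naive cells, which the filter favours, and lowest in transferred cells. Of the 85 kept probes, 69 were well above background on no transferred array and 24 on no immunised array. The order of groups for such probes is partly one of values at background. The 6 heavy chain variable probes with the highest means were Ighv14-3, Ighv10-3, Ighv1-7, Ighv1-83, Ighv1-85 and a probe named for the clone L2MZB-13.3. Ighv14-3 read -3.43, -2.05 and -4.32 in immunised cells, -4.62, -5.57 and -5.16 in transferred cells, -2.99, -4.02 and -4.23 in cultured cells and 1.01, -1.45 and 1.75 in naive cells. Ighv1-85 read -3.79, -1.58 and -5.61 in immunised cells, -7.56, -7.24 and -7.70 in transferred cells, -4.12, -5.19 and -5.95 in cultured cells and 0.47, -2.44 and 1.02 in naive cells. In both, immunised array 2 was the highest and array 3 the lowest of the group, and for Ighv1-85 immunised array 2 exceeded naive array 2.

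Ighv1-7 read -3.88, -2.04 and -5.66 in immunised cells, -6.90, -6.92 and -7.35 in transferred cells, -3.94, -4.90 and -5.58 in cultured cells and 0.46, -1.93 and 1.08 in naive cells. Ighv1-83 read -4.31, -1.87 and -6.28 in immunised cells, -7.05, -7.34 and -6.50 in transferred cells, -3.99, -5.19 and -5.86 in cultured cells and 0.16, -2.27 and 0.56 in naive cells. The clone L2MZB-13.3 probe read -4.39, -3.37 and -5.69 in immunised cells, -5.36, -5.85 and -6.24 in transferred cells, -4.17, -5.43 and -5.05 in cultured cells and -0.53, -2.97 and -0.07 in naive cells. These 3 shared the order of arrays within the immunised group, and the first 2 were at background in all transferred cells. Ighv1-83 and Ighv1-85 were kept through the naive group alone, which favours a call against it. Immunised over naive calls of Ighv1-85 (-3.35 ± 1.04, limma adjusted p = 0.0208) and Ighv1-83 (-3.63 ± 1.03, adjusted p = 0.0137) ended without immunised array 3 (adjusted p = 0.0875 and 0.0546) and without naive array 3 (0.0801 and 0.0536). That of Ighv1-85 also ended without immunised array 1 (0.0545) or naive array 1 (0.0702), and in a fit of the 6 arrays compared (0.0635).

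Ighv10-3 was the flattest of the kept probes. It read -3.66, -3.54 and -3.97 in immunised cells, -3.38, -3.07 and -3.43 in transferred cells, -3.50, -3.76 and -3.29 in cultured cells and -1.73, -3.08 and -1.31 in naive cells. It was well above background on all 12 arrays, and the transferred and naive groups overlapped. Its differences from naive cells were -1.68 ± 0.37 in immunised (3.22-fold, limma adjusted p = 0.00380), -1.25 ± 0.37 in transferred (2.39-fold, adjusted p = 0.0174) and -1.48 ± 0.37 in cultured cells (2.78-fold, adjusted p = 0.00964). The transferred call ended without transferred array 3 (0.0532) or naive array 1 or 3 (0.0603 and 0.0680), and in fits of the 6 arrays compared the transferred and cultured calls ended too (0.0582 and 0.0553).

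Among kappa variable probes the 6 highest means belonged to Igkv4-71, Igkv16-104, Igkv4-50, Igkv14-111, Igkv4-70 and Igkv8-24. Igkv4-71 read -2.18, -1.84 and -3.62 in immunised cells, -3.34, -3.72 and -3.77 in transferred cells, -1.43, -2.55 and -2.98 in cultured cells and 2.33, 0.05 and 2.54 in naive cells. Igkv16-104 read -3.01, -3.32 and -3.63 in immunised cells, -2.76, -3.34 and -3.39 in transferred cells, -3.34, -2.98 and -3.40 in cultured cells and -0.22, -1.79 and -0.38 in naive cells. Both were well above background on all 12 arrays, and for Igkv16-104 the 3 groups other than naive overlapped.

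Igkv4-50 read -3.01, -3.07 and -3.51 in immunised cells, -3.34, -3.52 and -3.55 in transferred cells, -3.13, -3.30 and -3.43 in cultured cells and -0.87, -2.41 and -0.73 in naive cells. Igkv4-70 read -4.04, -3.63 and -5.18 in immunised cells, -5.00, -4.72 and -4.95 in transferred cells, -2.62, -4.32 and -4.53 in cultured cells and 0.98, -1.46 and 1.04 in naive cells. Igkv8-24 read -3.70, -3.51 and -5.32 in immunised cells, -4.14, -4.34 and -4.43 in transferred cells, -3.90, -4.23 and -3.98 in cultured cells and -0.24, -3.08 and -0.78 in naive cells. In these 3 segments the naive arrays were all above the rest, and immunised array 3 was the lowest of its group. Together with Igkv4-71, Igkv16-104, Ighm and Ighv10-3 they are the 7 probes above background on all 12 arrays. Igkv4-58, named after its values were seen, joins them as the eighth probe above background on all 3 transferred arrays. Of those 8, limma called Ighm alone between immunised and transferred and between transferred and cultured cells. Each of the 8 was lower in transferred than in naive cells, by -6.48 to -1.25, with adjusted p between 1.50e-06 and 0.0174.

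Both lambda variable segments were kept. Iglv1 read -4.55, -2.98 and -5.53 in immunised cells, -7.92, -7.83 and -8.04 in transferred cells, -2.33, -3.38 and -4.47 in cultured cells and 2.71, 0.01 and 3.12 in naive cells. Iglv3 read -7.46, -6.17 and -6.32 in immunised cells, -7.75, -6.32 and -7.49 in transferred cells, -5.20, -7.31 and -7.34 in cultured cells and -0.83, -2.66 and -0.82 in naive cells. Iglv1 kept some signal in immunised and cultured cells, whereas Iglv3 was above background on cultured array 1 alone outside naive cells. Iglv1 was at least 204-fold lower in transferred than in naive cells (limma adjusted p = 1.04e-05).

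Igkv14-126, Igkv14-111 and Ighv11-2 were the segments called lower in immunised than in cultured cells, and all 3 were lower in transferred than in cultured cells as well. Ighv11-2 heavy chains and Igkv14-126 light chains are known in mice as a recurrent pair in antibodies to phosphatidylcholine made by B-1a cells, a self-renewing B cell subset. Igkv14-126 read -7.95, -6.36 and -7.69 in immunised cells and -7.97, -7.82 and -8.10 in transferred cells, all at background. It read 0.07, 0.22 and -1.84 in cultured cells and 1.10, -2.18 and 0.83 in naive cells, so cultured and naive arrays overlapped.

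Ighv11-2 read -7.86, -7.74 and -7.62 in immunised cells and -7.88, -7.81 and -8.00 in transferred cells, again at background throughout. It read -2.95, -2.83 and -4.61 in cultured cells and -2.45, -5.62 and -2.73 in naive cells. Igkv14-111 read -4.72, -4.45 and -5.98 in immunised cells, -7.83, -6.63 and -7.96 in transferred cells, -0.82, -0.86 and -2.72 in cultured cells and 1.96, 0.15 and 2.43 in naive cells. All 3 segments were lowest on array 3 among the cultured arrays, and on array 2 among the naive arrays.

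**Figure D3:**
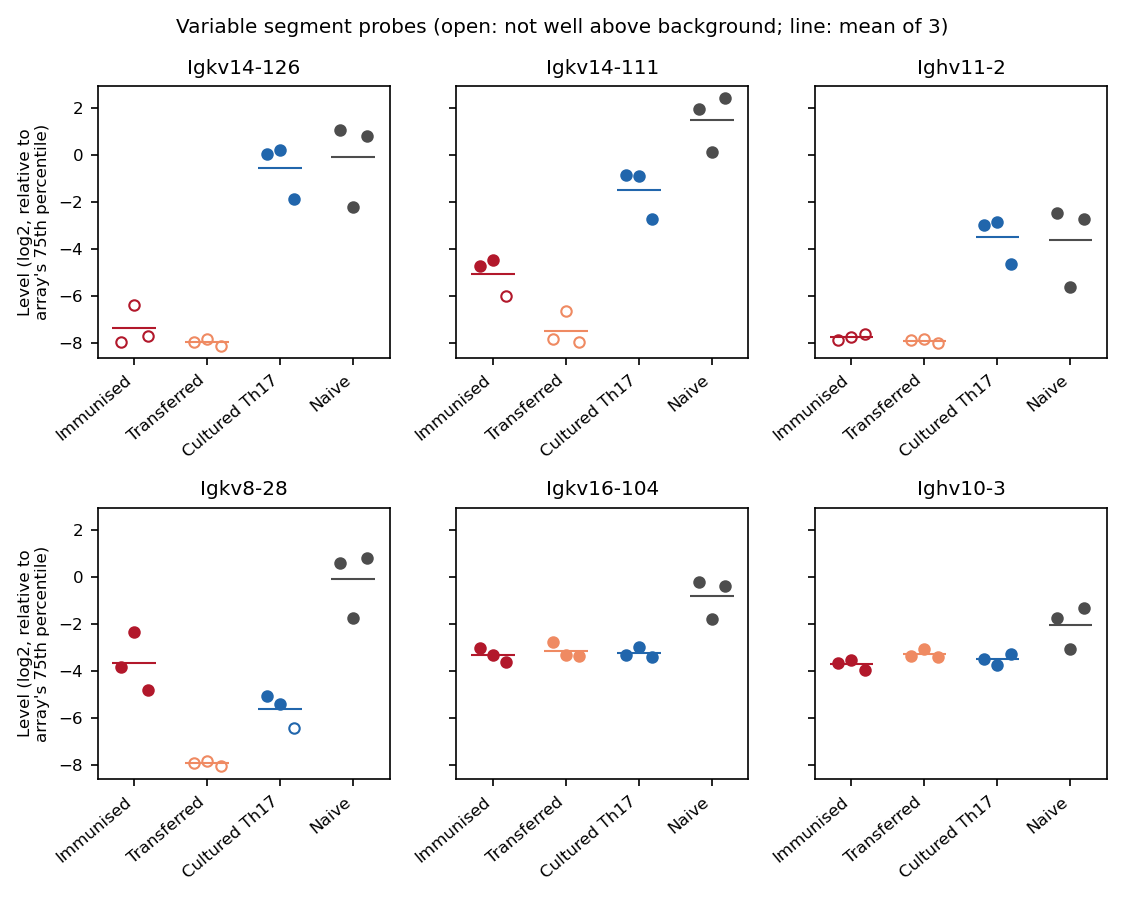
Level of 6 variable segment probes on each array (log2 signal relative to the array's 75th percentile, shared axis), by group, with the mean as a line and open circles for values not well above background. Igkv14-126 and Ighv11-2 overlap between cultured and naive cells and are open throughout the CNS groups, Igkv8-28 is filled in immunised and open in transferred cells, and Igkv16-104 and Ighv10-3 are nearly flat outside the naive group.

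Cultured Th17 cells, sampled after differentiation in vitro, had lower immunoglobulin signal than naive cells on most probes, a direction that the filter favours. Limma called 82 of 85 probes lower and 0 higher at an adjusted p under 0.05, where 22.5% of all 24333 probes tested were called lower and 18.9% higher; at an unadjusted p under 0.05 it was 83 lower and 0 higher. All 85 passed the filter on background in naive cells, 59 of them in no other group, so nothing is read from this share. The median log2 difference was -4.66, against -0.12 over all probes tested. It was -4.52 over heavy chain, -4.77 over kappa and -4.48 over lambda probes, and within slides 1, 2 and 3 the median over all 85 was -4.31, -2.92 and -6.34. On the 23 probes well above background on all 3 cultured arrays, which were measured on both sides, 20 were called lower, with a median of -3.75.

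The 3 probes not called were Ighv11-2 (0.14 ± 0.73, limma adjusted p = 0.894), Igkv14-126 (-0.44 ± 0.83, adjusted p = 0.701) and Igkv3-7 (-2.22 ± 1.0, adjusted p = 0.0991). The sign of the Ighv11-2 value turned without naive array 2 (-0.87), cultured array 1 (-0.12) or cultured array 2 (-0.18). The 76 variable probes other than Ighv11-2 and Igkv14-126, Igkv3-7 included, ranged from -6.20 to -1.48 with a median of -4.71, over fitted values that include arrays at background. Igkv1-110, whose level was -4.90, -8.22 and -7.95 in cultured and 0.59, -3.66 and 0.60 in naive cells, had the lowest fitted difference (-6.20 ± 1.58, adjusted p = 0.00991), which is no measured size, since it was above background on 1 cultured array. Igkv14-111, measured on all arrays of both groups, was lower in cultured cells (-2.98 ± 0.71, 7.90-fold, adjusted p = 0.00674).

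Between immunised and cultured cells 3 segments were called, and for the others the errors are too wide to show that the groups were alike. Limma called 3 of 85 probes lower and 0 higher, where 18.2% of all probes tested were called lower and 13.8% higher; at an unadjusted p under 0.05 it was 4 lower and 2 higher. The 3 lower probes were Igkv14-126 (at least 34.6-fold; -6.82 ± 0.83, adjusted p = 2.01e-04), Ighv11-2 (at least 4.49-fold; -4.28 ± 0.73, adjusted p = 0.00151) and Igkv14-111 (-3.58 ± 0.71, adjusted p = 0.00346, with 2 of 3 immunised arrays above background). The groups did not overlap for any of them, and leaving out any 1 array kept all 3 called. The highest fitted difference was that of Igkv1-110, at -3.93, -1.40 and -7.75 in immunised and -4.90, -8.22 and -7.95 in cultured cells (2.66 ± 1.58, adjusted p = 0.219), and the groups overlapped.

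The median difference over all 85 was 0.09, against -0.17 over all probes tested, with 45 positive and 40 negative values. Within slides it was -0.70, 1.05 and -0.24, so the sign turned with the slide. Among families of variable segments with 5 or more probes, the median difference was 0.66 for the 13 Ighv1 probes, 1.16 for the 6 Igkv1, -0.31 for the 15 Igkv4, 0.80 for the 6 Igkv6 and 1.38 for the 5 Igkv8 probes, and no probe of these families was called. The immunised arrays disagreed in these families: the Igkv1 median was -3.79, -1.63 and -7.06 on arrays 1, 2 and 3, against -4.65, -5.36 and -5.75 on the cultured arrays.

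**Figure D4:**
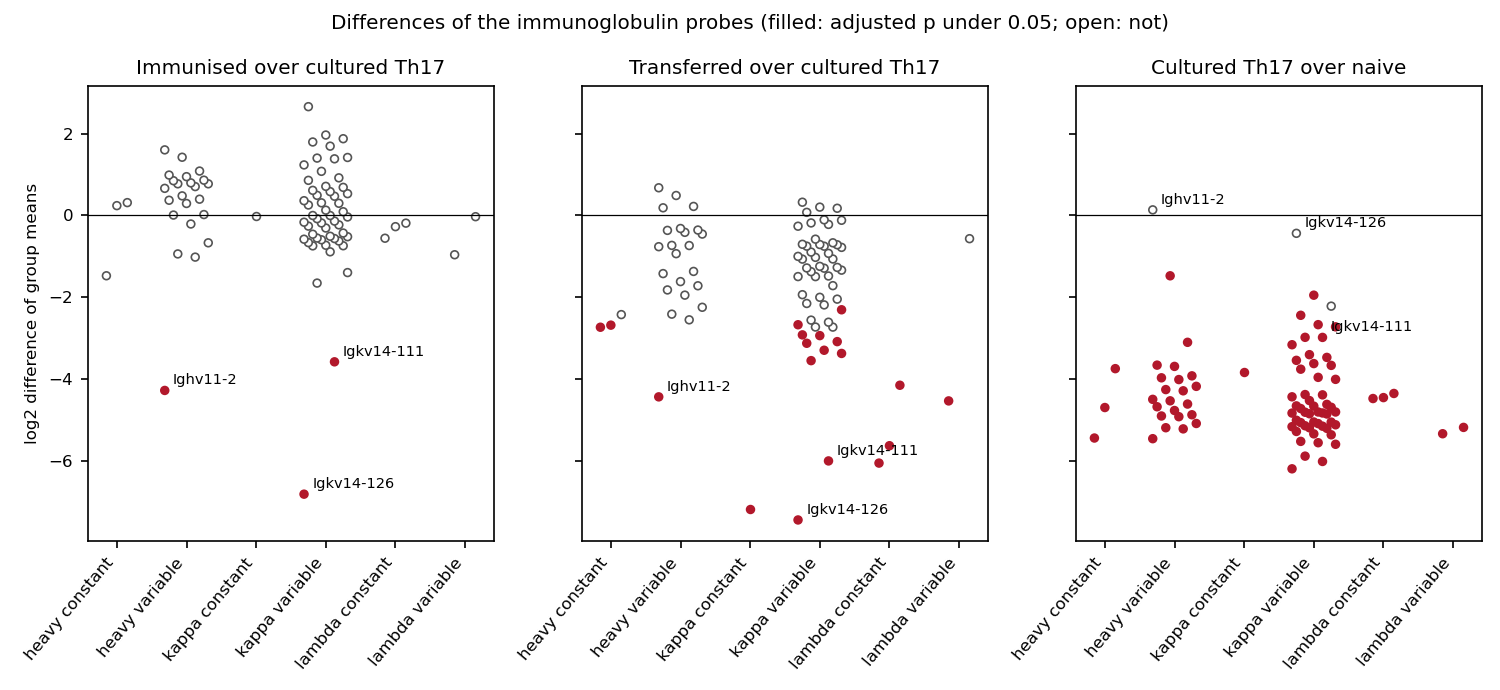
log2 difference of group means for each of the 85 probes, by locus and class, in 3 comparisons; filled points have an adjusted p under 0.05. Igkv14-126, Igkv14-111 and Ighv11-2 are the only filled points in immunised over cultured cells, and Ighv11-2 and Igkv14-126 are the 2 highest points in cultured over naive cells.

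Ighm, Igkc and the lambda constant probes were higher in immunised than in transferred cells, both taken from the CNS in EAE. The groups also differ in host genotype, way of induction and source of the T cells, and these cannot be told apart here. Limma called 9 of 85 probes higher and 0 lower, where 1.94% of all probes tested were called higher and 1.47% lower; at an unadjusted p under 0.05 it was 35 higher and 0 lower. The 9 were Ighm, Igkc, both Iglc3 probes, Iglc2, Iglv1, Igkv8-28, Igkv4-63 and Igkv6-17. The lowest value was that of Ighv1-23 (-1.43 ± 1.18, adjusted p = 0.530), which rests on transferred array 3. Lambda contributed 4 of its 5 probes, kappa 4 of 54 and heavy chain 1 of 26. The loci differ in their mix of classes, so these counts do not set lambda apart. Constant probes called were 3 of 3 lambda, 1 of 1 kappa and 1 of 3 heavy chain. Variable probes called were 1 of 2, 3 of 53 and 0 of 23 in that order. The Iglc3 probes among the lambda calls overlap. Of the 85, 17 were measured on all 3 arrays of at least 1 of these groups, 7 of the 9 called among them, and 79 had a positive difference.

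Igkv8-28 read -3.84, -2.34 and -4.83 in immunised cells, -7.93, -7.85 and -8.05 in transferred cells, -5.06, -5.41 and -6.44 in cultured cells and 0.61, -1.73 and 0.79 in naive cells. It was at least 4.16-fold higher in immunised than in transferred cells (limma adjusted p = 0.0127; 0.0519 without immunised array 1 and 0.239 with normexp and quantile normalization). Igkv4-63, described after its values were seen, read -3.87, -3.73 and -4.46 in immunised and -7.95, -7.85 and -7.68 in transferred cells (at least 3.26-fold, adjusted p = 0.0335). The count of 9 was 2 with normexp and quantile normalization and 4 without immunised array 1.

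Ighm, Igkc and the lambda constant probes were lower in transferred cells than in cultured cells of the kind that was injected. The transfer, the host and the CNS as the tissue sampled cannot be told apart in this comparison. Limma called 19 of 85 probes lower and 0 higher, where 15.6% of all probes tested were called lower and 12.7% higher; at an unadjusted p under 0.05 it was 29 lower and 0 higher. By locus the 19 were 4 of 5 lambda, 12 of 54 kappa and 3 of 26 heavy chain probes, and the share over all 85 is near enough to the background that nothing is read from it. Constant probes called were 3 of 3 lambda, 1 of 1 kappa and 2 of 3 heavy chain. Variable probes called were 1 of 2, 11 of 53 and 1 of 23 in that order, so the locus counts mix classes. Ighv1-63, at background in both groups, had the highest value (0.68 ± 0.52, adjusted p = 0.364). Igkv14-126 was at least 37.0-fold lower (adjusted p = 1.28e-04) and Igkv14-111 at least 19.1-fold lower (adjusted p = 1.72e-04). Ighv11-2 was at least 4.80-fold lower (adjusted p = 0.00143), and the second Ighg1 probe at least 2.11-fold lower (adjusted p = 0.0196; 0.0747 without transferred array 3, 0.0688 without cultured array 1 and 0.351 with normexp and quantile normalization). The Iglv1 call (at least 5.04-fold, adjusted p = 0.00314) also ended with that normalization (0.200). Of the 19, 9 are kappa variable probes measured on only 2 of 3 cultured arrays. In a fit of the 6 arrays compared the count was 34, beside 2118 of all 24333 probes tested. With normexp and quantile normalization it was 8, beside 4163, and without transferred array 3 it was 11.

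Both CNS groups were far below naive cells, a direction that the filter favours. Limma called 84 of 85 probes lower in immunised than in naive cells and 85 of 85 lower in transferred than in naive cells, with 0 higher in each. At an unadjusted p under 0.05 it was 85 lower and 0 higher in both. The background was 30.2% lower and 19.8% higher for immunised, and 28.7% lower and 20.3% higher for transferred cells, and nothing is read from the shares. The median difference was -4.19 for immunised and -6.11 for transferred cells, against -0.24 and -0.17 over all probes tested. Within slides it was -5.05, -1.62 and -6.49 for immunised and -6.92, -4.12 and -7.43 for transferred cells. The differences were smallest in size on slide 2, which holds naive array 2 and immunised array 2. The lowest fitted difference of immunised cells was that of Igkv14-126 (at least 46.8-fold, adjusted p = 6.89e-05) and that of transferred cells was Igkc. Igkv14-126 was at background on all immunised arrays and Igkc on 2 of 3 transferred arrays, so neither rank is one of measured size. The exception in immunised cells was Igkv1-110 (-3.54 ± 1.58, adjusted p = 0.0848).

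Among B cell genes outside the immunoglobulin loci, Ms4a1, which encodes the B cell surface protein CD20, was at background in transferred cells. It read -3.26, -3.46 and -3.59 in immunised cells, -7.85, -7.80 and -7.97 in transferred cells, -3.87, -5.42 and -4.22 in cultured cells and -2.21, -3.86 and -2.26 in naive cells. It was above background on every array of the other 3 groups, and the immunised arrays lay within the range of the naive ones.

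Transferred cells were at least 7.73-fold below naive cells for Ms4a1 (limma adjusted p = 1.39e-05), and immunised cells were at least 4.89-fold above transferred cells (adjusted p = 9.61e-04). Immunised over naive cells gave -0.66 ± 0.46 (adjusted p = 0.253). Cultured cells were lower than naive cells by -1.73 ± 0.46 (3.31-fold, adjusted p = 0.0126), a call that ended without naive array 3 (0.0508) and in a fit of the 6 arrays compared (0.0696).

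Cd79a, a signalling chain of the B cell receptor, read -2.86, -2.99 and -2.50 in immunised cells, -4.77, -4.30 and -4.34 in transferred cells, -3.15, -3.51 and -2.16 in cultured cells and -2.14, -3.39 and -2.08 in naive cells. Its partner Cd79b read -0.12, -0.07 and 0.10 in immunised cells, -1.73, -0.48 and -0.77 in transferred cells, -1.96, -3.29 and 0.31 in cultured cells and 0.48, -0.38 and -0.19 in naive cells. Cd79a was lower in transferred than in naive cells (-1.94 ± 0.40, 3.83-fold, limma adjusted p = 0.00256), and Cd79b was called in no comparison. Cultured array 3 had the highest Cd79a and Cd79b of its group and the lowest kappa constant level.

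Over the 24 genes of the B cell list, 22 were tested. Called genes numbered 5 higher and 0 lower in immunised over transferred cells, 7 and 3 in immunised over cultured, 6 and 5 in immunised over naive, 7 and 7 in transferred over cultured, 5 and 9 in transferred over naive, and 2 and 8 in cultured over naive cells. Over all probes tested, the shares called higher and lower were 1.94% and 1.47%, 13.8% and 18.2%, 19.8% and 30.2%, 12.7% and 15.6%, 20.3% and 28.7%, and 18.9% and 22.5% in that order, and nothing is read from list counts near them. The median log2 differences in that order were 0.60, 1.07, 0.04, -0.15, -1.14 and -0.79, against -0.04, -0.17, -0.24, -0.10, -0.17 and -0.12 over all probes tested. The list is mixed: Syk and Blnk, signalling molecules that myeloid cells also express, rose in both CNS groups, and Syk differed from naive cells by 5.65 ± 0.39 in immunised (50.4-fold, adjusted p = 2.52e-06) and 5.59 ± 0.39 in transferred cells (48.3-fold, adjusted p = 2.76e-06). The macrophage list moved with them, with 11 of 12 genes higher and 1 lower than in naive cells in each CNS group, and its summed linear level, in units of each array's 75th percentile signal, was 381 to 833 in immunised, 528 to 777 in transferred, 18.0 to 28.3 in cultured and 23.0 to 93.9 in naive cells. Most of the cultured and naive sums came from the Itgam probe. It read 3.84, 4.44 and 4.12 in cultured and 5.47, 4.40 and 6.52 in naive cells. The part of macrophages in the immunoglobulin values was not tested. Summed levels of the B cell list were 15.9 to 24.0 in immunised, 14.4 to 22.9 in transferred, 3.93 to 7.25 in cultured and 6.11 to 10.4 in naive cells. Syk and Blnk had the highest means of that list in both CNS groups, at 2.65 and 1.83 in immunised and 2.59 and 2.41 in transferred cells. Their means were -1.35 and -1.34 in cultured and -3.0 and -1.93 in naive cells. These sums are therefore no measure of B cell RNA.

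The remaining genes of this list named by level were Cd72 and Cd22, inhibitory receptors of B cells, and Ralgps2, a guanine nucleotide exchange factor. Cd72 was higher in both CNS groups than in cultured cells, by 2.52 ± 0.41 in immunised (limma adjusted p = 0.00123) and 2.26 ± 0.41 in transferred cells (adjusted p = 0.00267). Cd22 was not called between either CNS group and naive cells. Ralgps2 was lower than in naive cells by -0.92 ± 0.26 in immunised (adjusted p = 0.0134) and -1.48 ± 0.26 in transferred cells (adjusted p = 9.64e-04), and the immunised call ended without immunised array 3 (0.0581).

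Of the plasma cell list, Jchain and Mzb1 were at background in transferred cells and measured in the other 3 groups. Jchain, Mzb1 and Tnfrsf17 are described here after their values were seen, and other genes of the list went the other way. Sdc1 had means of -0.09 in immunised, -0.93 in transferred, -1.64 in cultured and -4.79 in naive cells. It was above background on 2 of 3 naive arrays. Slamf7 had means of -0.52, -0.89, -3.18 and -4.44 in that order. Those of Derl3 were -3.15, -3.29, -1.94 and -1.83, lower in the CNS groups, so the list is mixed. Jchain, which joins IgM and IgA into polymers, read -1.24, 0.77 and -3.87 in immunised cells, -7.71, -7.39 and -6.17 in transferred cells, -1.50, -1.65 and -4.57 in cultured cells and 4.26, 1.61 and 4.47 in naive cells. It was at background in all transferred cells and lowest on array 2 among the naive ones. Jchain was lower in immunised than in naive cells (-4.89 ± 1.22, 29.7-fold, limma adjusted p = 0.00703) and in cultured than in naive cells (-6.02 ± 1.22, 64.8-fold, adjusted p = 0.00282). In transferred cells it was at least 577-fold below naive cells (adjusted p = 6.77e-05).

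Tnfrsf17, a survival receptor of plasma cells, was above background on naive arrays 1 and 3 alone, at -3.72 and -3.62, against -8.19 on naive array 2, and entered no test. Mzb1, a chaperone of B-1, marginal zone and plasma cells, read -3.52, -2.37 and -3.98 in immunised cells, -6.80, -7.11 and -7.06 in transferred cells, -1.89, -2.41 and -0.29 in cultured cells and -0.70, -2.78 and -0.49 in naive cells. Cultured and naive cells overlapped for Mzb1 (-0.21 ± 0.68, adjusted p = 0.829), and transferred cells were at least 21.1-fold below naive cells (adjusted p = 8.58e-05).

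**Figure D5:**
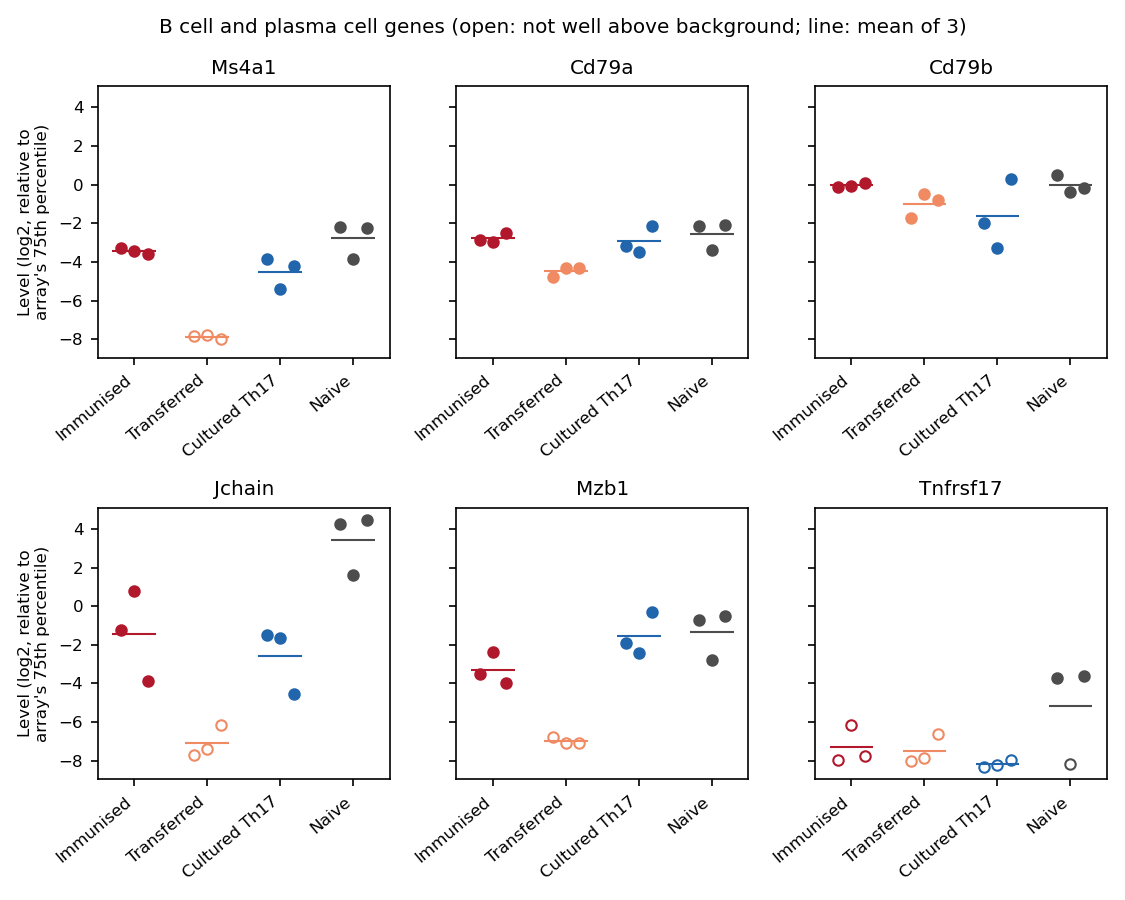
Level of 3 B cell genes (top) and 3 plasma cell genes (bottom) on each array (log2 signal relative to the array's 75th percentile, shared axis), by group, with the mean as a line and open circles for values not well above background. The immunised and naive points overlap for Ms4a1, Cd79a and Cd79b, whereas Jchain is highest in naive cells and Tnfrsf17 is filled on 2 naive arrays only; the transferred points are open for Ms4a1, Jchain, Mzb1 and Tnfrsf17.

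Some plasma cell genes that activated T cells also use were higher outside naive cells. Irf4, a transcription factor of activated lymphocytes, was higher than in naive cells by 3.36 ± 0.36 in immunised (10.3-fold, limma adjusted p = 4.15e-05), 3.86 ± 0.36 in transferred (14.5-fold, adjusted p = 1.62e-05) and 4.22 ± 0.36 in cultured cells (18.7-fold, adjusted p = 1.20e-05). Prdm1, which encodes Blimp-1, and Xbp1, a regulator of the secretory pathway, were also higher in each, by 1.96 to 2.76 and 1.35 to 1.76. Creld2, Eaf2 and Txndc5, the other genes named by level, were called in none of these. Over the list, 11 genes were tested, and called genes numbered 2 higher and 0 lower in immunised over transferred cells, 1 and 0 in immunised over cultured, 5 and 3 in immunised over naive, 1 and 2 in transferred over cultured, 5 and 3 in transferred over naive, and 4 and 1 in cultured over naive cells, beside the shares over all probes given with the B cell list.

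Dntt, Vpreb1 and Lig4, genes of receptor assembly, were lower outside naive cells. Rag1 and Rag2, the recombinase that cuts receptor segments, were above background on none of the 12 arrays. Dntt, the polymerase that adds bases at the joins, read -2.12, -1.06 and -1.64 in immunised cells, -4.35, -4.16 and -4.58 in transferred cells, -2.58, -3.54 and 2.51 in cultured cells and 4.08, 3.77 and 3.19 in naive cells. Cultured array 3 stood near the naive arrays and apart from the other cultured arrays, and Dntt was lower in cultured than in naive cells by -4.89 ± 1.19 (29.6-fold, limma adjusted p = 0.00776; 0.0520 in a fit of the 6 arrays compared). Vpreb1, part of the surrogate light chain of B cell precursors, was lower than in naive cells by -2.48 ± 0.41 in immunised, -2.52 ± 0.41 in transferred and -3.37 ± 0.41 in cultured cells, with limma adjusted p of 6.17e-04, 5.55e-04 and 1.07e-04.

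Ung, which removes uracil from DNA during replication as well as in antibody diversification, was higher in transferred than in naive cells (2.62 ± 0.56, 6.13-fold, limma adjusted p = 0.00291). Lig4, a ligase of DNA end joining, was lower in every other group than in naive cells, by -2.33 ± 0.22 in immunised, -2.13 ± 0.22 in transferred and -1.26 ± 0.22 in cultured cells (adjusted p at most 0.00113). Differences of Xrcc4, its partner, lay between -0.80 and 0.28, and those of the nuclease Dclre1c between -0.68 and 1.31. Of 12 genes in the list 8 were tested, with 0 called either way in immunised over transferred cells, 0 higher and 2 lower in immunised over cultured, 0 and 4 in immunised over naive, 2 and 2 in transferred over cultured, 2 and 4 in transferred over naive, and 0 and 4 in cultured over naive cells. With 8 genes tested, nothing is read from these counts against the shares over all probes (18.2% lower in immunised over cultured and 30.2% lower in immunised over naive cells, for example).

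Genes of antigen presentation and of myeloid cells were higher in both CNS groups. Of 9 class II genes, which B cells, macrophages and dendritic cells use to present antigen, 7 were called higher in immunised and 8 in transferred than in naive cells, and 0 between immunised and transferred cells. Of 9 tested genes for Fc receptors, which bind antibody on myeloid cells, 6 were higher and 1 lower than in naive cells in each CNS group. Neutrophil genes were called higher than in naive cells for 8 of 8 in immunised and 6 of 8 in transferred cells, and dendritic cell genes for 5 and 3 of 6. Of the 12 T cell genes, 5 were lower in immunised and 8 in transferred than in naive cells, with 0 higher. Over all probes tested, 19.8% were called higher and 30.2% lower in immunised than in naive cells. For transferred over naive cells the shares were 20.3% and 28.7%, and for immunised over transferred cells 1.94% and 1.47%. With so few genes a list, nothing is read from counts near these shares, such as the 5 of 12 T cell genes.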

How the data were processed

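RNA of 12 samples in 4 groups of 3 was measured on 1-colour Agilent arrays. The deposited intensity of each spot was made with Agilent Feature Extraction 10.7.3.1, per the file headers, with background subtraction. The deposited series matrix, of unstated normalization, served as an alternative. Outlier spots were left out, repeated spots averaged (Ighm has 10), and log2 processed signal was taken minus the array's 75th percentile (signals of 686 to 1023). The 24333 probes well above background on all 3 arrays of a group entered 1 model of 4 group means (limma 3.58.1, R 4.3.3, lmFit and eBayes; 8 residual and 2.561 prior degrees of freedom), with Benjamini-Hochberg adjustment over all probes and a call under 0.05. Errors are SE of the fit, and tests are two-sided. On simulated data for cultured over naive cells, 200 of 24333 probes were changed in all, shared evenly among the simulated sizes. Of those raised by 2 log2 units 70% were called, and of those raised by 1 log2 unit 26%. In the measured comparison 41.4% of all probes were called, a much larger part. The simulated shares therefore do not give the power of that comparison, and none was worked out for immunoglobulin probes alone.

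Members and gene lists were chosen with earlier results of these data known. Values on every array are given for constant probes and for the 6 highest variable probes per locus, and the largest rise and fall of each comparison are named, over all kept probes and over those measured on all 3 arrays of a group. Genes outside the loci were represented by the probe with the highest mean, and up to 6 per B cell, plasma cell and recombination list were named by mean level, with Cd79a, Cd79b and Ms4a1; 1 further gene of that rule is not reported here. Per the series text, the 3 replicates stem from independent experiments. The replicate number is also the slide and the scan, and the position on the slide is fixed by group, so position and group cannot be told apart. Other normalizations, filters and thresholds, a slide block and leaving out each array were alternatives.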

Additional observations from a re-analysis of the deposited data

How the results depend on the processing

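Of 103 named differences of immunoglobulin probes, 97 were called, and none of these changed sign under any alternative. With only the 7 probes above background on all 12 arrays, all 7 were called lower than naive cells in each of 3 comparisons, 1 was called higher in immunised over transferred, 1 lower in transferred over cultured and 0 lower in immunised over cultured cells, since few probes were left. Other counts moved as follows. Probes called higher in immunised over transferred cells (9) numbered 2 after normexp and quantile normalization and 3 at an adjusted p under 0.01. Over all 24333 probes tested the numbers called higher were 471, 621 and 130 in that order. Probes called lower in transferred over cultured cells (19) numbered 8 after normexp and quantile normalization, 10 at an adjusted p under 0.01 and 34 with only the 6 arrays compared. Over all probes tested the numbers called lower were 3791, 4163, 1755 and 2118 in that order. Median scaling called 2 probes higher in immunised over cultured cells, against 0; the cause was not tested. It also turned the median of all probes in cultured over naive cells to 0.015, against -0.122, and their calls to 4559 higher and 3820 lower, against 4610 and 5475.

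Leaving out 1 array at a time gave 4 to 12 probes higher in immunised over transferred cells, 0 to 4 higher and 3 to 4 lower in immunised over cultured, 72 to 85 lower in immunised over naive, 11 to 23 lower in transferred over cultured, 82 to 85 lower in transferred over naive and 78 to 83 lower in cultured over naive cells. The lowest counts came without immunised array 1 (4) and transferred array 3 (11), and the 4 higher in immunised over cultured without immunised array 3. The uncalled Ighv11-2 difference of cultured over naive cells ranged from -0.87 to 0.71 and was -0.031 after normexp and quantile normalization. That of Igkc in immunised over cultured cells ranged from -0.69 to 0.54 and was 0.022 after it.

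The replicate block (slide) left 8, 3, 81, 19, 85 and 82 probes called in the direction given for the 6 comparisons in the order above, and ended none of the 97 calls; it ended the Jchain call in immunised over transferred cells (adjusted p = 0.0572) and the Xrcc4 calls in immunised over cultured and over naive cells (0.0607 and 0.0510). Same-numbered arrays did not deviate together (correlations of -0.202 to 0.199). Signals near background limit most variable segments outside naive cells.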
